A study of Mus musculus with 36 samples.

Results

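Alveolar macrophages that had grown from transferred yolk sac macrophages were compared with alveolar macrophages that had developed in place in wild-type mice of the same age. The comparison uses 8 of the 36 arrays of the series, chosen by their titles, 4 of each kind. YS-derived macrophages came from yolk sac macrophages of C57BL/6 embryos at stage E12.5 that carried both CD45.1 and CD45.2. The donor cells were given through the nose to newborn mice lacking Csf2rb, and CD45.1+CD45.2+ cells were sorted from the lavage of their lungs 6 weeks after transfer. Native macrophages were sorted from the lavage of untreated C57BL/6 wild-type mice aged 6 weeks and are called the native 6-week group. Further groups serve for orientation. Cells of 3 other origins went through the same transfer and the same interval: fetal liver monocytes (E15.5, FL-derived), adult bone marrow monocytes (6 to 12 weeks, BM-derived) and adult alveolar macrophages (AM-derived). Untransferred adult alveolar macrophages (mice of 6 to 12 weeks) and the yolk sac macrophages before transfer were also profiled. Each of these groups holds 4 arrays. The 2 groups compared differ in origin, in the transfer itself and in the genotype of the mouse whose lung they occupied, and these cannot be told apart from this pair alone. The AM-derived group shares the transfer and the recipient with the YS-derived group. No sorting marker other than CD45 is named in the labels.

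Alveolar macrophages are the resident phagocytes of the air spaces. They take up and break down surfactant, the lipid film that keeps the alveoli open. The growth factor GM-CSF, whose receptor contains the Csf2rb chain, drives their development after birth, largely through the nuclear receptor Pparg. A mouse without Csf2rb lacks mature alveolar macrophages of its own, which leaves the niche open for transferred cells. Yolk sac macrophages are the earliest macrophages of the embryo.

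Values are log2 signals of the array table deposited by the authors. The median of an array lay between 4.54 and 4.73, and the median of the whole table, 4.62, served as the level below which a probe set was treated as dim. Of 19938 genes with a probe set, 12244 exceeded that median in at least 4 of the 36 arrays and were tested. Arrays of the YS-derived group correlated with each other at 0.976 to 0.982 across genes, native 6-week arrays at 0.979 to 0.984, and arrays of the 2 groups with each other at 0.966 to 0.975. Replicate 4 of the adult native group stood apart from its group, with a lowest correlation of 0.957. The native 6-week arrays were not alike in sex-linked genes. All 4 YS-derived arrays carried signal of the Y-linked gene Eif2s3y (6.55 to 7.57) and of Xist, the RNA that silences an X chromosome in females (6.37 to 8.53). Native replicates 1 and 4 had 7.88 and 7.87 log2 units of Eif2s3y and 4.31 and 3.73 of Xist. Native replicates 2 and 3 had 2.65 and 2.85 of Eif2s3y and 8.99 and 9.24 of Xist. The labels give no sex and do not say whether mice were pooled. Results are therefore also given against each pair of native arrays.

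The YS-derived macrophages differed from the native 6-week macrophages in 211 of the 12244 genes tested, or 1.72%. Of these, 125 genes were higher (1.02%) and 86 lower (0.702%) in YS-derived macrophages at an adjusted p under 0.05 (limma, Benjamini-Hochberg over all genes tested). At least a 2-fold difference was found for 122 of them (0.996%), 79 higher (0.645%) and 43 lower (0.351%). The median difference over all genes tested was -0.01 on the log2 scale. In 195 of the called genes (1.59% of those tested) the 4 YS-derived and the 4 native arrays did not overlap, and such separation was seen in 768 genes (6.27%) at any p. Against native replicates 1 and 4 alone 149 genes were called, and against native replicates 2 and 3 alone 140. Of these, 135 and 130 were among the 211. Each of these fits has 2 native arrays instead of 4, so a lost call need not mean a smaller difference. Of the 30 genes with the largest differences, which are described one by one, 28 kept their call against either pair. The exceptions were Cyp4a12b and Gpr171. These 30 genes were chosen for large differences without overlap in the same arrays, so that count adds no support. RNA of sorted cell pools was measured, so fewer cells of a kind and less RNA per cell cannot be told apart. The labels call the samples biological replicates, and each p-value measures their spread per gene within all 9 groups.

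**Figure D1:**
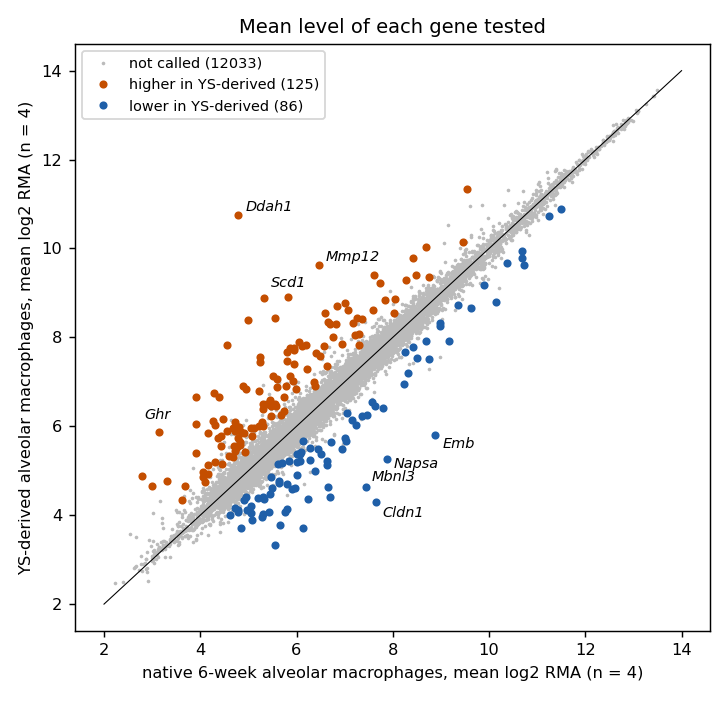
Mean log2 signal of each tested gene in YS-derived macrophages (vertical axis) against native 6-week macrophages (horizontal axis), 4 arrays each. Genes called higher and lower at an adjusted p under 0.05 are coloured and the most changed ones named. Most genes lie on the diagonal, and Ddah1 stands farthest above it.

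Most genes that mark alveolar macrophages had levels in YS-derived cells close to those of native cells. All 32 measured markers of the alveolar macrophage list had a group mean above the table median in both groups, while 14 of the 32 did in yolk sac macrophages before transfer. Epcam did so only narrowly in YS-derived cells, with a mean of 4.64. Averaged over the 32 genes, the YS-derived arrays had 9.93, 9.97, 9.97 and 10.09 log2 units, against 10.07, 10.07, 10.04 and 10.10 in native arrays. These averages overlap only at the highest YS-derived array. Of the 32 genes 1 was called higher and 4 lower (15.6%, against 1.72% of all genes tested), and the median difference was 0.01. In 10 of the 32 the YS-derived and native arrays did not overlap, beside 6.27% of all genes tested. Ctsk, the protease cathepsin K, was higher by 0.66 and not called (adjusted p = 0.0875, limma). It passed with the 24 alveolar macrophage arrays and with the 2 groups alone (adjusted p = 0.00127 and 0.018, limma).

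Pparg, the transcription factor downstream of GM-CSF, had 10.02, 9.85, 10.08 and 10.15 log2 units in YS-derived arrays, against 10.46, 10.22, 10.24 and 10.09 in native arrays (difference -0.22 ± 0.14 SE, adjusted p = 0.764, limma). Chil3, a secreted chitinase-like protein, was at 12.90 ± 0.10 in YS-derived and 12.90 ± 0.04 in native macrophages (SD, n = 4 each). In the yolk sac macrophages its 4 arrays lay between 3.10 and 3.53, a dim signal. Car4, a membrane carbonic anhydrase, had means of 11.55 and 11.38 in YS-derived and native macrophages, against 3.63 to 3.97 in the arrays of the yolk sac precursors. The receptor gene itself, Csf2rb, had 9.66 ± 0.33 in YS-derived and 9.85 ± 0.10 in native macrophages.

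Most other members of the panel also missed the threshold. Fabp4, a lipid carrier induced by Pparg, averaged 10.68 ± 0.12 in YS-derived and 9.99 ± 0.26 in native arrays, a difference of 0.69 ± 0.21 that missed the threshold (adjusted p = 0.1, limma). Differences of the integrin Itgax (-0.18), the scavenger receptor Marco (0.37) and the mannose receptor Mrc1 (-0.09) did not pass either. Cx3cr1, the fractalkine receptor that marks early macrophages, had 5.67, 5.91, 5.25 and 5.85 in YS-derived arrays, against 5.83, 5.87, 5.89 and 5.37 in native arrays. The groups overlapped, while yolk sac macrophages had 10.71 to 11.11. Timd4, a phosphatidylserine receptor of embryonic macrophages, was dim in both groups, with all arrays between 4.03 and 4.49. Apoe and the monocyte receptor Ccr2 differed by 0.31 and -0.23, neither of which passed.

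Of the alveolar list, 4 members were lower in YS-derived macrophages. Siglecf, the sialic acid receptor used to identify these cells, had 8.53, 8.49, 8.88 and 8.72 log2 units in YS-derived arrays, against 9.69, 9.55, 9.72 and 9.51 in native arrays. The ranges were separate, with a 1.95-fold lower level (log2 difference -0.96 ± 0.19, adjusted p = 0.00183, limma). Krt79, a keratin, was lower by 1.25 ± 0.24 and Cidec, a lipid droplet protein, by 1.11 ± 0.25 log2 units, in both cases without overlap. Cidec was not called against native replicates 2 and 3 alone (adjusted p = 0.177, limma), and Krt79 not with YS-derived replicates 2 and 3 alone (adjusted p = 0.0746, limma). Epcam, an epithelial adhesion molecule, had 4.24, 5.46, 4.46 and 4.41 in YS-derived arrays, against 6.89, 7.23, 5.81 and 6.70 in native arrays. The highest YS-derived array stayed under the lowest native one. Among YS-derived arrays only replicate 2 (5.46) lay above the dim level, and the mean of 4.64 was just above it. The difference of Epcam was -2.02 ± 0.36 (adjusted p = 0.000463, limma). Cdh1, the adhesion molecule E-cadherin, was the member that rose, with 8.21 to 9.02 in YS-derived and 7.39 to 7.75 in native arrays (1.02 ± 0.19).

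**Figure D2:**
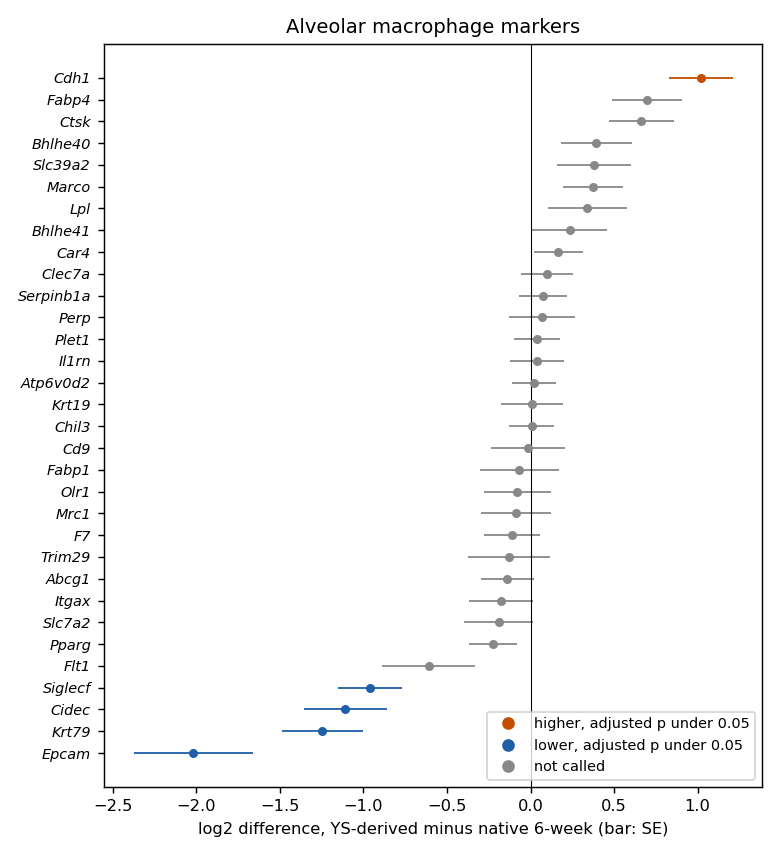
Difference in mean log2 signal between YS-derived and native 6-week macrophages (horizontal axis, n = 4 each) for the 32 measured alveolar macrophage markers. Points are differences, bars their standard errors, and colours mark genes past the threshold. Epcam (-2.02), Krt79, Cidec and Siglecf lie below 0 and Cdh1 (1.02) above it, while most markers lie near 0.

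The largest rise of all genes was that of Ddah1, an enzyme that degrades asymmetric dimethylarginine, an inhibitor of nitric oxide synthases. It had 10.46, 10.35, 11.09 and 11.10 log2 units in YS-derived arrays, against 4.44, 4.60, 4.88 and 5.25 in native arrays. All YS-derived arrays were bright and all native ones near the dim level. The fold was 62.0 (log2 difference 5.95 ± 0.55, adjusted p = 8.74e-09, limma), against a native mean of 4.79 that is only just above the dim level. Yolk sac macrophages before transfer had 6.14 to 6.89, less than the YS-derived cells.

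Some of the other large rises were enzymes and carriers of lipids, grouped here by their known roles. Scd1, the desaturase that makes monounsaturated fatty acids, had 8.61, 8.73, 9.19 and 9.04 in YS-derived arrays, against 5.05, 6.22, 4.68 and 5.36 in native arrays. The groups were far apart, with an 11.8-fold higher level (3.57 ± 0.37, adjusted p = 5.47e-08, limma). Its relative Scd2 rose by 1.24 ± 0.31 and was not called against either pair of native arrays (adjusted p = 0.226 and 0.101, limma). The differences of Scd2 there were 1.15 and 1.33. Awat1, an acyltransferase that esterifies wax alcohols, had 7.90, 8.37, 7.24 and 7.84 in YS-derived arrays, against 4.54, 4.57, 5.12 and 3.98 in native arrays, and was at least 9.29-fold higher. Fabp7, a fatty acid carrier best known from brain, had 7.89, 5.22, 6.90 and 6.63 in YS-derived arrays, against 3.95, 3.87, 4.01 and 3.84 in native arrays. The YS-derived arrays spread widely while the native ones were uniformly dim, so the rise of at least 4.10-fold is a lower bound (2.74 ± 0.48, adjusted p = 0.000396, limma). With YS-derived replicates 2 and 3 alone its difference was 2.14 and was not called (adjusted p = 0.053, limma).

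Further lipid genes were found through the fixed lists and the comparison with AM-derived cells. Slc27a1, a fatty acid transporter, had 7.41, 7.44, 7.69 and 8.14 in YS-derived arrays, against 5.77, 5.81, 5.73 and 5.93 in native arrays (1.86 ± 0.20). Msr1, a scavenger receptor for modified lipoproteins, had 8.75, 8.47, 8.69 and 8.95 in YS-derived arrays, against 6.57, 6.98, 7.27 and 6.54 in native arrays. It was 3.66-fold higher without overlap (1.87 ± 0.16, adjusted p = 3.43e-09, limma). Pdk4, a kinase that shifts fuel use from glucose to fat, had 7.62 to 7.86 in YS-derived and 4.87 to 6.63 in native arrays (1.77 ± 0.32). Abca1, a cholesterol exporter, and Plin1, a lipid droplet coat protein, rose by 0.72 ± 0.19 and 0.48 ± 0.12. Abca1 lost its call against either pair of native arrays and Plin1 against replicates 1 and 4.

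In the lipid lists a few members were called and the medians lay near 0, beside 1.72% called over all genes. Of 28 tested genes of lipid uptake, storage and efflux 3 were called higher and 1 lower (14.3%), with a median difference of 0.19. Of 14 genes of fatty acid synthesis 2 were called (14.3%), both desaturases and both higher, with a median of 0.02. Of 22 genes of fatty acid oxidation 1 was called higher, with a median of 0.10. None of the 20 genes of cholesterol synthesis was called, and their differences lay between -0.35 and 0.42.

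Mmp12, Mfge8, Anpep and Plau, which act at or outside the cell surface, rose as well. Mmp12, the macrophage elastase, had 9.25, 9.41, 9.66 and 10.16 in YS-derived arrays, against 6.03, 7.18, 6.02 and 6.62 in native arrays. It was 8.91-fold higher (3.16 ± 0.46, adjusted p = 2.99e-05, limma). Mfge8, which bridges dying cells to phagocytes, had 8.51, 8.39, 7.83 and 9.03 in YS-derived arrays, against 5.35, 6.03, 5.36 and 5.46 in native arrays. The lowest YS-derived array exceeded the highest native one by a wide margin (2.89 ± 0.26, adjusted p = 4.64e-09, limma). Anpep, a surface aminopeptidase, rose by 2.21 ± 0.35 and Plau, the urokinase plasminogen activator, by 1.07 ± 0.21, although Plau was not called against native replicates 2 and 3 alone (adjusted p = 0.164, limma). Anpep, Plau and Mmp12 were the members called among 19 genes of matrix, proteases and inhibitors (15.8%, against 1.72% of all genes, with a median of 0.11). Serpinb6b, an intracellular protease inhibitor, had 6.74, 7.37, 6.67 and 6.20 in YS-derived arrays, against 4.08, 3.91, 3.95 and 5.17 in native arrays. With 3 of 4 native arrays dim, the level was at least 4.35-fold higher.

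Among other enzymes, Akr1b8, an aldo-keto reductase, had 8.46, 8.30, 8.17 and 8.68 in YS-derived arrays, against 5.38, 4.78, 4.10 and 5.71 in native arrays (3.41 ± 0.37). Car13, a cytosolic carbonic anhydrase, rose by 2.31 ± 0.25 and Fam20c, a kinase of secreted proteins, by 2.01 ± 0.30. Cyp4a12b, a cytochrome of a family with near-identical copies, was dim in native arrays (2.67 to 2.89) and scattered in YS-derived ones (3.85 to 6.34), so its signal is uncertain.

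Ghr, Igf1 and Igf2bp3, known from growth control, rose too. Ghr, the growth hormone receptor, had 6.06, 5.79, 5.55 and 6.10 in YS-derived arrays, against 2.94, 3.22, 3.26 and 3.12 in native arrays. Native signals were all dim, so the rise is given as at least 2.38-fold (log2 difference 2.74 ± 0.20, adjusted p = 9.01e-11, limma). Igf1, insulin-like growth factor 1, had 8.50, 8.52, 8.52 and 8.66 in YS-derived arrays, against 6.61, 6.96, 6.07 and 6.73 in native arrays, a 3.88-fold higher level. The YS-derived arrays lay within a narrow band close to the yolk sac macrophages (8.49 to 9.17). Igf2bp3, an RNA-binding protein of fetal tissues, had 6.74, 6.84, 6.55 and 7.09 in YS-derived arrays, against 5.31, 5.17, 4.97 and 5.42 in native arrays (1.59 ± 0.17, adjusted p = 5.47e-08, limma). It was the gene called among 10 tested fetal growth genes (10.0%, against 1.72% of all genes tested), whose median was -0.02. Bmpr1a, a receptor for bone morphogenetic proteins, was at least 2.41-fold higher than its dim native level, and the ligand gene Tgfb2 was at least 1.34-fold lower and dim in YS-derived cells. They were the 2 called among 24 genes of TGF-beta and BMP signalling (8.33%, against 1.72% of all genes tested).

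Of the complement and inflammatory lists 3 genes passed the test. C2, a protease of the classical complement pathway, had 6.53, 6.25, 5.21 and 6.26 in YS-derived arrays, against 3.90, 3.80, 4.10 and 3.86 in native arrays. It was at least 2.71-fold higher (2.15 ± 0.24, adjusted p = 1.43e-07, limma), and yolk sac macrophages had 4.79 to 5.79. It was the 1 called gene of 10 in the complement list (10.0%, against 1.72% of all genes). Ccl9 and Ccl3, chemokines for other leukocytes, rose by 1.78 ± 0.32 and 1.48 ± 0.39 and were the 2 called of 27 inflammatory mediators (7.41%, median 0.09). Ccl3 did not keep its call against either native pair, and Ccl9 lost its own against replicates 2 and 3 (adjusted p = 0.0516, limma). Ptges, a synthase of prostaglandin E2, rose by 1.47 ± 0.36 and lost its call against each native pair (adjusted p = 0.143 and 0.18, limma). Its difference stayed at 1.47 against either pair. Trem2, a lipid-sensing receptor of tissue macrophages, had 8.42, 8.39, 8.58 and 8.38 in YS-derived arrays, against 7.18, 7.52, 7.22 and 7.12 in native arrays (1.18 ± 0.16). Trem2 and Igf1 were the 2 called of 29 tissue and fetal macrophage markers (6.90%, against 1.72% of all genes). The median of that list was -0.03, and 16 members lay below 0. Slc40a1, the iron exporter, rose by 1.20 ± 0.27, with 5.52 to 6.52 in YS-derived and 4.47 to 5.32 in native arrays. It was the 1 called of 22 antioxidant and iron genes (4.55%, median 0.13). In receptors of phagocytes, Clec4d rose by 1.00 ± 0.22 and Fcgr2b, the inhibitory IgG receptor, was lower by 1.28 ± 0.16. With Msr1 they were the called members of 28 scavenger and phagocytic receptors (10.7%, against 1.72% of all genes). The median of that list was -0.05, and 16 members lay below 0. Neither Slc40a1 nor Clec4d was called against native replicates 1 and 4 alone (adjusted p = 0.281 and 0.0706, limma).

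The largest falls included junction and adhesion molecules. Cldn1, a tight junction protein, had 5.29, 3.70, 3.96 and 4.27 in YS-derived arrays, against 7.74, 8.0, 7.38 and 7.45 in native arrays. The gene was clearly present in every native array and dim in 3 of 4 YS-derived ones. Its level was at least 8.11-fold lower (log2 difference -3.34 ± 0.34, adjusted p = 4.17e-08, limma). Emb, a membrane glycoprotein of the immunoglobulin superfamily, had 6.90, 5.01, 5.02 and 6.28 in YS-derived arrays, against 8.59, 9.11, 9.14 and 8.71 in native arrays (8.48-fold lower). Itga4, an integrin chain, was lower by 1.22 ± 0.29 and was not called against native replicates 2 and 3 alone (adjusted p = 0.33, limma). Emb and Itga4 were the 2 called of 19 genes in the classical monocyte list (10.5%, against 1.72% of all genes tested). In AM-derived against native 6-week cells 2 members of that list were called lower as well, beside 0.31% of all genes.

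Mbnl3 and Napsa were also among the largest falls. Mbnl3, an RNA-binding splicing regulator, had 4.41, 4.22, 4.96 and 4.92 in YS-derived arrays, against 7.44, 7.38, 7.52 and 7.47 in native arrays. The native arrays lay close together, the YS-derived mean was at the dim level, and the fall was 7.08-fold (-2.82 ± 0.28, adjusted p = 2.19e-08, limma). Napsa, an aspartic protease of lysosomes and of surfactant processing, had 5.04, 4.76, 5.75 and 5.55 in YS-derived arrays, against 7.74, 8.07, 7.82 and 7.88 in native arrays (-2.60 ± 0.25). It was the member called lower among 36 lysosome genes, of which Lgmn, the protease legumain, was called higher (0.62 ± 0.16). The called share of that list was 5.56%, against 1.72% of all genes tested. Lgmn was not called against either native pair (adjusted p = 0.301 and 0.0848, limma).

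Signalling genes completed the list. Plcb1, a phospholipase C that acts below G protein-coupled receptors, had 4.44, 4.27, 4.62 and 4.16 in YS-derived arrays, against 6.31, 5.88, 6.30 and 6.47 in native arrays (at least 3.07-fold lower). Arhgap15, which switches off the GTPase Rac, had 3.61, 3.69, 4.24 and 3.59 in YS-derived arrays, against 6.00, 5.78, 5.5 and 5.36 in native arrays (at least 2.05-fold lower). Mctp2, a calcium-binding membrane protein, had 3.40, 3.28, 3.14 and 3.48 in YS-derived arrays, against 5.33, 5.17, 5.83 and 5.88 in native arrays (at least 1.9-fold lower). All 3 were dim in YS-derived cells and separate from the native range. The receptors Gpr141 and Adgrl3, also dim in YS-derived cells, had falls of at least 2.86-fold (Gpr141) and 4.2-fold (Adgrl3). Gpr171 fell too (-1.40 ± 0.35), although it lost its call against either native pair (adjusted p = 0.202 and 0.119, limma). Its differences there were -1.305 and -1.499. The adaptor Stap1 (-1.51 ± 0.24), the kinase Map4k1 (-1.48 ± 0.25), the kinase inhibitor Inka1 (-1.42 ± 0.25) and the nucleoside kinase Uck2 (-1.38 ± 0.27) fell as well. The mean of both Uck2 probe sets differed by -0.98.

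**Figure D3:**
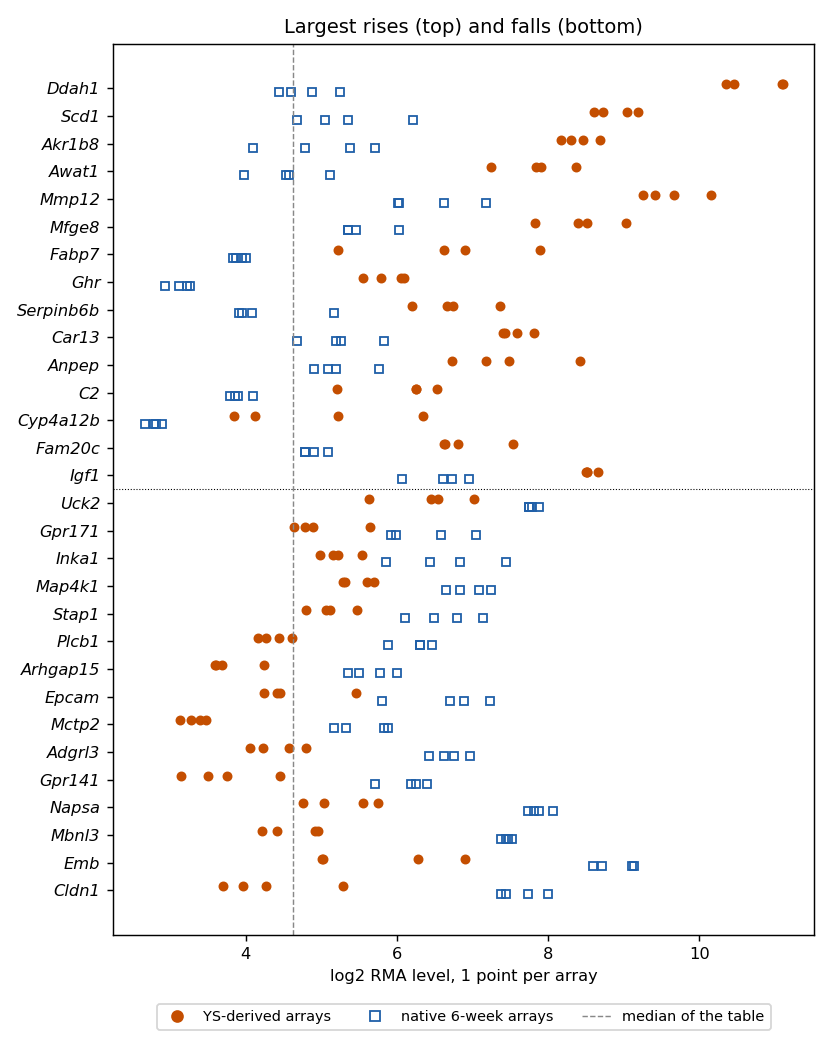
Log2 signal (horizontal axis) in each YS-derived array (filled circles) and each native 6-week array (open squares) for the 15 largest rises (top) and the 15 largest falls (bottom) without overlap. The dashed line is the median of the table, 4.62. Fabp7 and Cyp4a12b scatter most among the rises, and the native arrays of Mbnl3 and Uck2 lie close together.

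AM-derived macrophages went through the same transfer, so setting YS-derived cells against them compares 2 origins after the same transfer. That comparison called 72 genes (0.588%), 36 higher and 36 lower (0.294% each) in YS-derived macrophages. AM-derived macrophages differed from the native 6-week group in 131 genes (1.07%), 93 higher (0.76%) and 38 lower (0.31%). The comparisons share arrays, so their values are only set side by side.

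Several of the large rises were not called between YS-derived and AM-derived cells, which does not show equal levels. Scd1 had a mean of 8.89 in YS-derived and 9.33 in AM-derived macrophages, a difference of -0.44 (adjusted p = 0.996, limma). AM-derived cells exceeded native cells in Scd1 by 4.00 log2 units. Mmp12 had 9.25, 9.41, 9.66 and 10.16 in YS-derived arrays and 9.19, 9.23, 8.79 and 9.67 in AM-derived arrays, which overlap. Mfge8, Igf1, Pdk4 and Trem2 differed between YS- and AM-derived cells by 0.62, 0.49, 0.07 and 0.10, none of them called. The arrays of Igf1 did not overlap, with 8.50 to 8.66 in YS-derived and 7.83 to 8.27 in AM-derived cells. Among falls, Emb had a mean of 5.80 in YS-derived and 5.84 in AM-derived macrophages, and Arhgap15 one of 3.78 and 3.98. For Ddah1 the direct difference was 2.17 (adjusted p = 0.0599, limma). Its arrays did not overlap, with 10.35 to 11.10 in YS-derived and 7.48 to 9.85 in AM-derived cells.

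Other genes separated the origins. Cldn1 had 7.0, 7.31, 7.21 and 7.25 in AM-derived arrays, close to the native level, and was lower and dim in YS-derived macrophages (adjusted p = 1.61e-06, limma). Mbnl3 had 7.41, 7.84, 7.84 and 7.48 in AM-derived arrays and was lower in YS-derived macrophages by 3.02 (adjusted p = 1.66e-08, limma). In FL- and BM-derived macrophages the means were 7.37 and 7.41 for Cldn1 and 7.29 and 7.59 for Mbnl3. Both genes differed from FL-derived and from BM-derived cells in the direct contrasts, with adjusted p = 1.08e-06 and 2.62e-07 (limma) for Cldn1 and differences of -2.66 and -2.96 for Mbnl3. Napsa also had its lowest mean of the 4 transferred groups in YS-derived cells, with 5.27 in YS-derived macrophages, against means of 7.55 in FL-derived, 7.69 in BM-derived and 7.29 in AM-derived cells. Fcgr2b was lower than in AM-derived cells by 1.15, and Stap1 and Map4k1 by 1.44 and 1.29. Plcb1 and Mctp2, dim in YS-derived cells, were called lower too (adjusted p = 0.000263 and 5.92e-08, limma).

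On the higher side, Ghr had a mean of 5.87 in YS-derived macrophages, with 4.70 in FL-derived, 3.44 in BM-derived and 3.53 in AM-derived macrophages. It was called against each of them (adjusted p = 0.00199, 2.18e-09 and 5.94e-09, limma). The BM- and AM-derived means lie under the dim level. C2 was likewise dim in BM- and AM-derived cells and called against all 3 groups, with means of 6.06 in YS-derived, 4.84 in FL-derived, 3.89 in BM-derived and 4.06 in AM-derived cells. Igf2bp3 was also high in FL-derived macrophages, at 6.61 against 6.80 in YS-derived cells, while BM- and AM-derived cells had 5.33 and 5.23. The difference from FL-derived cells, 0.20, was not called, and the difference from BM-derived cells, 1.47, was. Stap2, an adaptor protein, was higher in YS-derived macrophages than in each of the FL-, BM- and AM-derived groups, by 1.48, 1.82 and 1.73. Against native replicates 2 and 3 alone it was not called (adjusted p = 0.0868, limma). Fn1, fibronectin, was not called against native cells (-1.08, adjusted p = 0.271, limma), but exceeded AM-derived cells by 2.64. Its mean was 9.12 in YS-derived, 6.48 in AM-derived and 10.20 in native macrophages.

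Against FL-derived macrophages 33 genes were called (0.27%), and against BM-derived macrophages 102 (0.833%). These 2 contrasts were added after the data had been seen. The FL-derived group was uneven: its replicate 4 had 4.16 of Ddah1 and 8.90 of Emb, while its other arrays had 7.07 to 8.88 of Ddah1 and 6.03 to 6.61 of Emb.

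**Figure D4:**
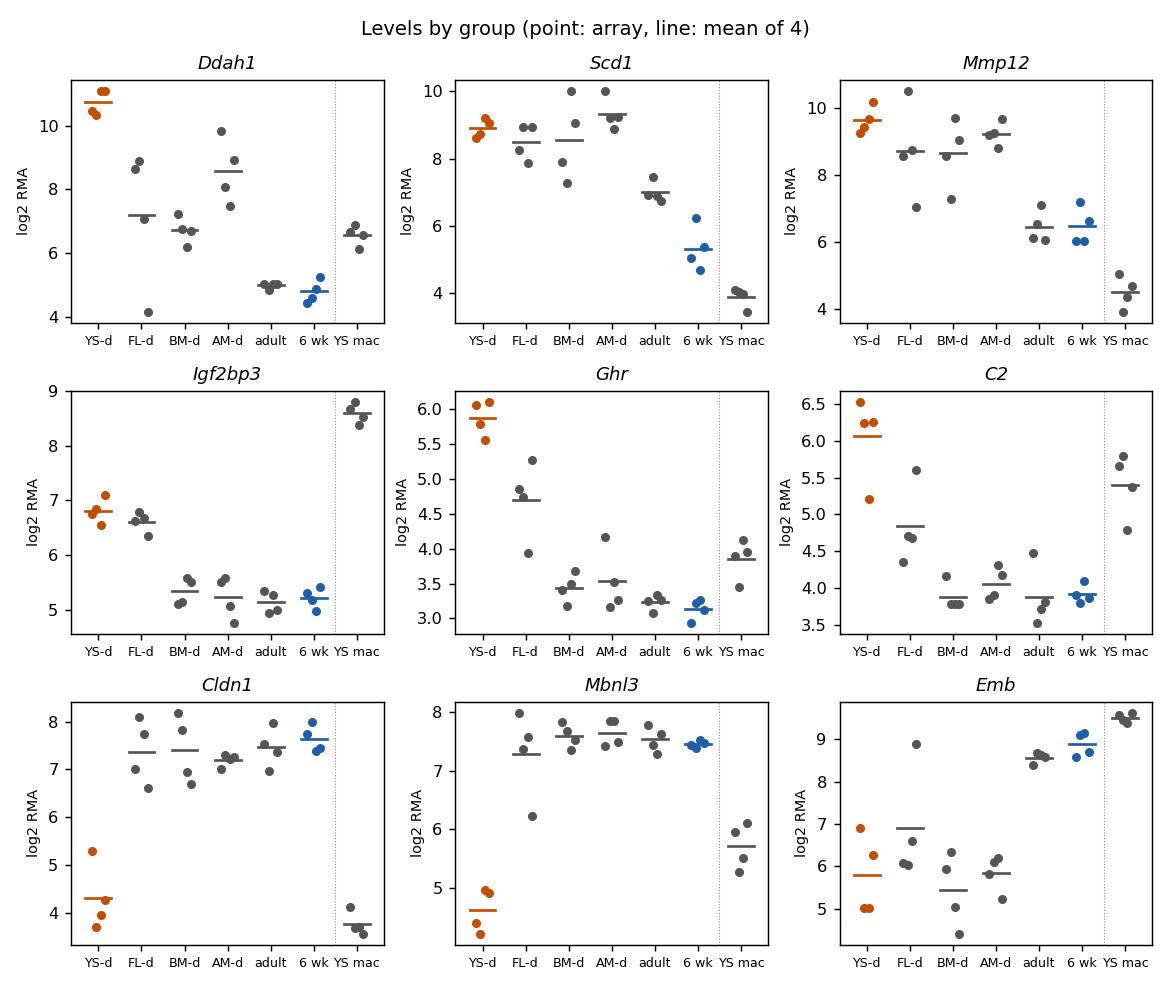
Log2 signal of 9 genes in each array of YS-derived, FL-derived, BM-derived, AM-derived, adult native and native 6-week macrophages and of yolk sac macrophages before transfer. Points are arrays and lines group means. Scd1 and Mmp12 have higher means in all 4 transferred groups than in either native group, whereas Cldn1 and Mbnl3 have their lowest alveolar means in YS-derived cells.

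Of 12 tested MHC class II genes, whose products present antigen to helper T cells, 4 were lower in YS-derived than in AM-derived macrophages, beside 0.294% of all genes tested. Of the same 12 genes 5 were higher in AM-derived than in native cells, beside 0.76% of all genes. H2-Aa had 7.58, 7.18, 7.31 and 8.15 log2 units in YS-derived arrays. It had 10.58, 11.29, 11.12 and 10.75 in AM-derived arrays and 8.82, 10.22, 7.92 and 8.98 in native arrays. The native arrays scattered widely and overlapped with the YS-derived ones (-1.43 ± 0.45, adjusted p = 0.134, limma). All AM-derived arrays lay above all YS-derived arrays, and the difference of -3.38 was called (adjusted p = 1.14e-05, limma). The second chain H2-Ab1 and the chain H2-Eb1 differed from AM-derived cells by -3.32 and -3.09, and Cd74, the invariant chain, by -3.05. Against native 6-week cells those 3 differences were -1.45, -0.83 and -0.99, and none was called. Adult native macrophages had means of 10.26 for H2-Aa, 10.06 for H2-Ab1, 7.92 for H2-Eb1 and 9.84 for Cd74. The AM-derived means were 10.94, 10.62, 8.81 and 10.48, and the native 6-week means 8.985, 8.74, 6.54 and 8.42. The adult native means thus lay nearer to the AM-derived ones. Without native replicate 3, the lowest native array for these genes, H2-Aa, H2-Ab1 and Cd74 passed the threshold at -1.78, -1.80 and -1.42 (adjusted p = 0.042, 0.0134 and 0.0498, limma). Leaving out the lowest native array widens the difference by itself, so these calls add no support. Without any other single native array none of these genes was called. Ifi30, a thiol reductase of antigen processing, was the 1 called gene of 12 in the list against native 6-week cells (-0.50 ± 0.13). That is 8.33%, against 1.72% of all genes tested, and Ifi30 lost its call against either native pair. The list median was -0.34, and 10 of its 12 members lay below 0. FL-derived macrophages had a mean of 6.54 for H2-Aa and BM-derived ones 10.35. The direct difference of YS-derived from FL-derived cells, 1.01, was not called, and that from BM-derived cells, -2.79, was. Probe sets of this gene family can share signal.

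Some interferon-response genes, part of the antiviral programme switched on by type I interferon, rose in YS-derived macrophages. Of 26 tested members 5 were called (19.2%, against 1.72% of all genes tested), all higher, and 21 were not, and the median difference was 0.48, against -0.01 over all genes. All 26 differences were above 0. For AM-derived against native cells the list median was 0.24, with 1 member called. Irf7, the transcription factor that amplifies the response, had 6.14, 5.78, 5.58 and 6.84 in YS-derived arrays, against 5.16, 4.64, 4.46 and 4.67 in native arrays (adjusted p = 0.00189, limma). Oas1a, a synthase of the messenger that activates RNase L, had 8.23, 7.39, 8.10 and 8.30 in YS-derived arrays, against 6.35, 7.10, 6.33 and 7.23 in native arrays (1.25 ± 0.26). Ifi27l2a, an interferon-inducible membrane protein, had 12.01, 10.81, 11.00 and 11.50 in YS-derived arrays, against 8.74, 10.28, 9.69 and 9.46 in native arrays (1.79 ± 0.39). Rtp4 rose by 1.80 ± 0.46, with 8.76, 6.79, 7.13 and 8.32 in YS-derived arrays, against 6.03, 5.98, 5.96 and 5.84 in native arrays. Oasl2, a relative of Oas1a named as the remaining called member after its values were seen, rose by 1.16 ± 0.31.

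YS-derived replicates 1 and 4 led these genes. Replicate 4 was the highest YS-derived array for 16 and replicate 1 for 10 of the 26 members. The mean level of the 26 genes was 6.69, 5.93, 6.06 and 6.81 in YS-derived arrays, against 5.57, 5.82, 5.68 and 5.74 in native arrays. With YS-derived replicates 2 and 3 alone, Irf7, Oas1a, Ifi27l2a and Rtp4 differed by 0.95, 0.99, 1.36 and 1.01 and none was called (adjusted p = 0.188, 0.196, 0.282 and 0.712, limma). Against native replicates 1 and 4 Irf7, Oas1a and Rtp4 were not called, and against replicates 2 and 3 Ifi27l2a and Rtp4 were not. Rtp4 differed by 1.81 and 1.78 against the 2 pairs. Leaving out YS-derived replicate 1, YS-derived replicate 4 or any 1 native array left 2 or 3 of the 5 calls. Other transferred groups overlapped with the YS-derived range, from 5.81 to 6.20 in FL-derived, from 5.79 to 6.58 in BM-derived and from 5.83 to 6.27 in AM-derived arrays. None of the named interferon genes was called against any of those groups.

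The promoters of the called interferon genes are shown because 5 genes of 1 fixed list rose together. Sequences from RefSeq (mouse assembly GRCm38.p6) were in the table for 3 of the 5 called genes. Each is the 250 bases before the annotated start, 5′ to 3′ on the strand of the gene. Oas1a is read from chr5:120907526-120907775 on the minus strand, Irf7 from chr7:141266425-141266674 on the minus strand and Oasl2 from chr5:114896684-114896933 on the plus strand. Capitals mark matches to the core of the interferon-stimulated response element.
Oas1a: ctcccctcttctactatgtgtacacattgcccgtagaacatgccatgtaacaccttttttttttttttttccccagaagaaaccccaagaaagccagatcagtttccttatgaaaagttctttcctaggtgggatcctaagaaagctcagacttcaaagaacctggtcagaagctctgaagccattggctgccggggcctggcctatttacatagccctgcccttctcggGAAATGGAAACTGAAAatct
Irf7: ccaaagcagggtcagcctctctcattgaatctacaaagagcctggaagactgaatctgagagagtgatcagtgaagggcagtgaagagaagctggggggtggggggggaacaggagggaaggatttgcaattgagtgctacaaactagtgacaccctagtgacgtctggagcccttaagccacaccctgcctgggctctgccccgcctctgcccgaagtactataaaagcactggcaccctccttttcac
Oasl2: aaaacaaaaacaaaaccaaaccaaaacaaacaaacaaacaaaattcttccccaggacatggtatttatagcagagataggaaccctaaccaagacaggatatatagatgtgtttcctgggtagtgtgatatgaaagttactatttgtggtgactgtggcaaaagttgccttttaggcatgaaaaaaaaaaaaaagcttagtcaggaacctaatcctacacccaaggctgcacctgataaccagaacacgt
The Oas1a promoter holds 2 overlapping matches that begin 20 and 14 bases before the start. Irf7 and Oasl2 have no match to it in this window on either strand. The core occurs on either strand in 978 of 32851 promoters of the table (2.98%) and in 9 of the 18 list members that the table holds. The other core searched, TTCNNNGAA of the gamma-activated site, occurs in 7.02% of all promoters, in 4 of those 18 members and in 1 of the 3 shown. A match is a description of the sequence and not evidence of binding.

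**Figure D5:**
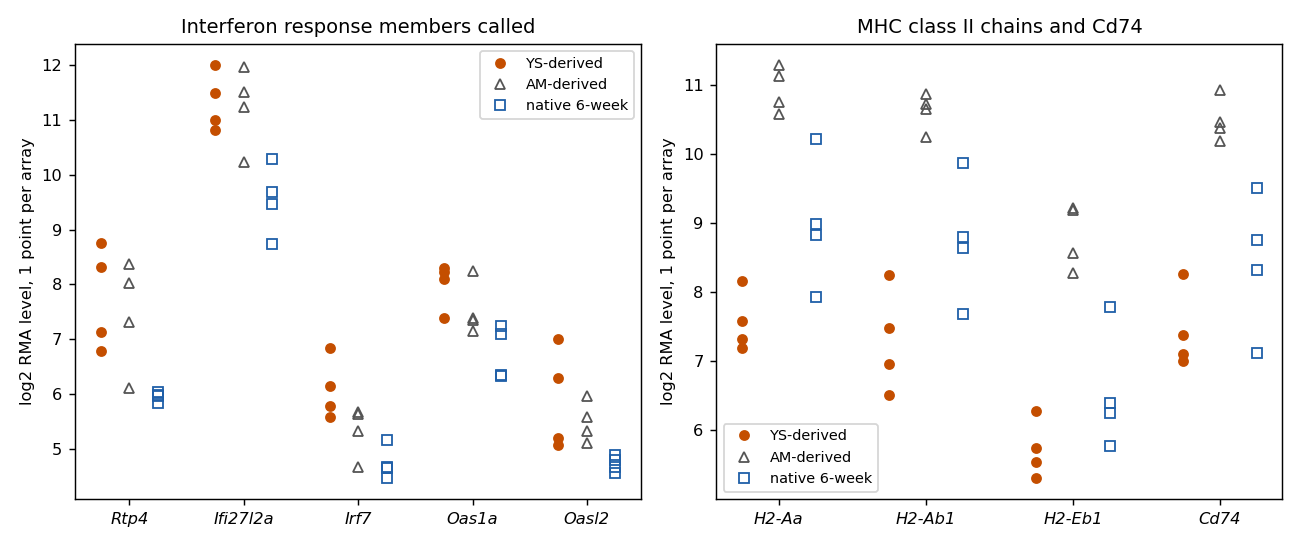
Log2 signal of 5 interferon-response genes and 4 MHC class II genes in each array of YS-derived, AM-derived and native 6-week macrophages. The interferon genes are separate between YS-derived and native arrays, and the MHC class II genes have their highest means in AM-derived arrays.

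The genes that differed were set against the profile of the yolk sac macrophages before transfer. Yolk sac macrophages and adult native alveolar macrophages, which share no array with the main comparison, differed in 5166 genes (42.2%), 2783 higher and 2383 lower in yolk sac macrophages. Of the 125 genes higher in YS-derived macrophages 50 (40.0%) were also higher in the yolk sac precursors and 34 (27.2%) were lower, against 22.7% and 19.5% of all genes. Of the 86 genes lower in YS-derived macrophages 57 (66.3%) were also lower in the precursors and 11 (12.8%) were higher. Genes called lower had to be present in native cells, and genes called higher were selected for a lower level there. The adult native cells, the reference for the precursors, differed from the native 6-week cells in 2 genes. Part of both shares can therefore come from how the genes were selected. With AM-derived cells as the reference instead, the shares were 32% higher in both and 54.7% lower in both. The shares of all genes were then 23.7% and 19.7%. Read from the other side, the overlapping genes were a small part of the precursor differences. Of the 2783 genes higher in the precursors 1.80% were called higher in YS-derived macrophages and 0.395% lower. Of the 2383 lower ones 2.39% were called lower and 1.43% higher. Over all genes tested 1.02% were called higher and 0.702% lower. The median difference of YS-derived from native cells was 0.02 for the genes higher and -0.03 for the genes lower in the precursors.

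Individual genes fell on both sides. Igf2bp3 and Msr1 were higher in yolk sac macrophages than in adult native cells, by 3.46 and 2.82 log2 units, and Cldn1, Napsa, Mbnl3 and Plcb1 were lower there, by -3.69, -3.67, -1.82 and -2.82. Scd1 and Mmp12, which rose in YS-derived cells, were lower in the precursors than in adult native cells, by -3.10 and -1.94. Inka1, which fell in YS-derived cells, was higher in the precursors by 2.82. Awat1 and Fabp7 were dim in all 4 precursor arrays, at 4.04 to 4.37 and 3.79 to 4.16.

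The distance of each array from the mean profile of adult native macrophages, taken as 1 minus the Pearson correlation over the genes tested, was larger for YS-derived macrophages. It was 0.0221, 0.0213, 0.0195 and 0.0202 in YS-derived arrays, against 0.0153, 0.0113, 0.0127 and 0.0116 in native 6-week arrays, with no overlap. The exact two-sided permutation p was 0.029, the smallest that 4 against 4 arrays can give. The other transferred groups had mean distances of 0.0186 (FL-derived), 0.0184 (BM-derived) and 0.0179 (AM-derived). Their arrays reached 0.0227, 0.0207 and 0.0226, so each of these groups overlapped with the YS-derived arrays. Against adult native macrophages YS-derived cells differed in 248 genes (2.03%), 122 higher (0.996%) and 126 lower (1.03%). The adult and the 6-week native groups differed in 2 genes (0.0163%; limma; 499, or 4.08%, at an unadjusted p under 0.05). These were Clec1b, the podoplanin receptor CLEC-2, and Tmem9, a lysosomal membrane protein. Clec1b was higher in adult native cells by 1.83 ± 0.28, and it was lower in YS-derived than in AM-derived cells by 2.58.

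Other lists held no called gene in YS-derived against native macrophages. They were genes of GM-CSF signalling and its transcription factors (21 tested), cell cycle (35), glycolysis and hypoxia (19), immediate early and stress response (27), MHC class I (12), chemokine receptors (13) and Hox and adult haematopoietic factors (6). The cell cycle genes had a median difference of 0.02, between -0.24 and 0.63. No marker of neutrophils (14 tested), dendritic cells (8), T and NK cells (5), B cells (2), erythroid cells (6), lung epithelium (10) or endothelium and stroma (5) was called either. Over all genes tested 1.72% were called, and at that share lists this short would hold few or no calls. The lack of calls therefore says little about any of these lists. S100a8, a calcium-binding protein abundant in neutrophils, had 10.52, 10.54, 10.81 and 10.26 in YS-derived arrays, against 8.43, 9.66, 9.16 and 9.37 in native arrays. The arrays did not overlap, but the difference of 1.38 ± 0.41 missed the threshold (adjusted p = 0.097, limma) and passed it with the 2 groups alone (adjusted p = 0.0107, limma). Averaged over 17 neutrophil markers, the arrays lay between 4.54 and 4.88 in YS-derived and between 4.55 and 4.63 in native macrophages.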

How the data were processed

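The deposited values are on the log2 scale and cover 35556 probe sets of a whole-transcript mouse array in 36 samples. The submitters' processing notes name RMA as the normalisation. RMA removes a shift shared by most genes and compresses folds of dim genes. Of the probe sets 21789 had 1 gene symbol in the platform annotation, 1621 several and 12146 no entry. Symbols were updated by Entrez identifier (21698 matched in the RefSeq genes of GRCm38.p6 and 91 did not). The brightest probe set stood for each of 999 genes that had more than 1, leaving 19938 genes. Levels of different genes are not compared.

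The 36 arrays entered 1 linear model (limma 3.58.1, R 4.3.3) with a mean for each group, over the 12244 genes above the table median in at least 4 arrays, and tested on simulated data. A gene is called at a Benjamini-Hochberg adjusted p under 0.05. Where a group mean lay under the table median, that median replaced it in folds, written "at least". Differences are given ± SE and levels ± SD.

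Named genes are a panel of 14, the 15 largest rises and 15 largest falls without overlap (predicted and RNA genes left out), up to 4 members per gene list with the lowest p, the 8 largest each way against AM-derived and adult native cells, and all genes where 12 or fewer were called. The comparison, the 33 lists and the rule were chosen with earlier results of these data known. Slc27a1, Ptges and Stap2 come from the AM-derived contrast. No scan date was used, and the number of arrays limits the precision.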

Additional observations from a re-analysis of the deposited data

Results flagged for a closer look

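Of the 78 named genes, single arrays lay far from the rest of their group (Dixon's test) in 7 of the 156 groups checked, and chance alone flags about 1 in 20 groups. In YS-derived arrays the gap as a share of the group's range was 0.875 for Igf1 (replicate 4 above the others), 0.846 for Arhgap15 (replicate 3 above) and 0.931 for Bmpr1a (replicate 3 below). In native 6-week arrays it was 0.885 for Cx3cr1 (replicate 4 below), 0.838 for Mfge8 (replicate 2 above), 0.865 for Serpinb6b (replicate 4 above) and 0.914 for Plin1 (replicate 2 below).

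Among the panel and the 30 largest differences, the change relative to native macrophages of 16 genes differed between YS-derived and AM-derived cells. This was tested as the direct contrast in limma with adjusted p under 0.05. Over all genes tested that contrast called 72 genes (0.588%). The 30 genes were chosen for large differences in the same YS-derived arrays, so a higher called share is built in. The count of 16 therefore adds no support. Where a group mean is dim, the value is a fitted difference and not a measured fold. Higher in YS-derived than in AM-derived macrophages, in log2 units, were Fabp7 (2.48), Ghr (2.34), C2 (2.00), Serpinb6b (1.72), Awat1 (1.57) and Akr1b8 (1.55). The lower ones were H2-Aa (-3.38), Mbnl3 (-3.02), Cldn1 (-2.89), Mctp2 (-2.18), Napsa (-2.02), Plcb1 (-1.50), Epcam (-1.50), Stap1 (-1.44), Map4k1 (-1.29) and Adgrl3 (-1.06).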

How the results depend on the processing

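No named difference that was called changed sign under any alternative. Against adult native cells the 122 higher and 126 lower genes became 92 and 77 with the 2 groups alone, 126 and 117 after renewed quantile normalisation and 74 and 54 at 2-fold or more. The main count of 211 genes lay between 174 and 223 with the 24 alveolar macrophage arrays, the 2 groups alone, other filters, probe set means, other scalings or another prior. It was 140 (84 higher, 56 lower) against native replicates 2 and 3, 139 with YS-derived replicates 2 and 3 alone, and 122 at 2-fold or more. Leaving out 1 array gave 177 to 201. Called list members numbered 35, and 27 to 33 without 1 array, but 21 with YS-derived replicates 2 and 3. At 2-fold or more the counts were 47 against AM-derived cells, 128 against adult native cells and 75 for AM-derived against native, and the precursor counts 32 higher and 30 lower in both. The adult against native 6-week count of 2 became 0 with those 2 groups alone (459 at an unadjusted p under 0.05 in limma), and 1 to 5 without 1 array. The causes of these shifts were not tested. Without 1 array the other counts were 56 to 71 (AM-derived), 189 to 224 (adult native) and 88 to 117 (AM-derived against native), and the distance difference 0.00755 to 0.00886.

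Same-numbered YS-derived and native arrays correlated at -0.094 to 0.045 in their deviations from the group means, so the numbers do not pair the samples. The replicate block gave 217 calls, 205 of them among the 211, and ended 1 named call, that of Abca1 (adjusted p = 0.0668). Of 59 named calls 49 to 54 held without any 1 array. Those lost without at least 1 array were Abca1, Ccl3, Cidec, Clec4d, Cyp4a12b, Gpr171, Ifi27l2a, Ifi30, Itga4, Lgmn, Plin1, Ptges, Rtp4, Scd2 and Slc40a1. Against native replicates 2 and 3 Ccl9, Plau and Stap2 were also lost, and against 1 and 4 Irf7 and Oas1a. Some genes not called passed under an alternative (limma): Fabp4 and Fn1 with the 2 groups alone (0.69 and -1.08, adjusted p = 0.0344 and 0.0124), S100a8, Nusap1 and Hspa1a likewise (1.38, 0.63 and 1.11, adjusted p = 0.0107, 0.0327 and 0.0375), Cxcr2 without YS-derived replicate 1 or native replicate 3 (adjusted p = 0.0254 and 0.0498), Pgam1 and Csf3r without native replicate 2 (adjusted p = 0.0293 and 0.0107), and H2-Ab1 without YS-derived replicate 4 (-1.77, adjusted p = 0.0188).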
